A study of Mus musculus with 18 samples.

Results

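Pigp encodes a small membrane protein of the complex that carries out the first reaction in making glycosylphosphatidylinositol (GPI) anchors. Of 19475 genes with a probe set of their own it is 1, and it is described here through both of the probe sets that the platform's table assigns to it, 10441055 and 10545528, which are 2 of the 25344 probe sets on the array. Each is described on its own. Pigp was chosen by its KO minus HET difference in these same data, so that this difference is given as a description with no test.

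GPI anchors are glycolipids that hold many proteins on the outer face of the cell membrane, and in macrophages they carry Cd14, the co-receptor for lipopolysaccharide (LPS). Their synthesis begins on the endoplasmic reticulum, where a complex of Piga, Pigc, Pigh, Pigp, Pigq, Pigy and Dpm2 puts N-acetylglucosamine on phosphatidylinositol. Mannoses and ethanolamine phosphates are then added, a transamidase joins the finished anchor to the protein, and further enzymes remodel the lipid.

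The cells were mouse bone marrow-derived macrophages on day 7 of differentiation, from mice of a mixed background (94% C57BL/6 and 6% 129/Ola). They were Wbp7-/- (KO) or Wbp7+/- (HET), so that the HET cells also carried the mutant allele. Wbp7, now named Kmt2b, encodes a histone H3 lysine 4 methyltransferase, and the question was which genes depend on it at rest and under LPS. The 6 groups of 3 arrays were KO and HET cells left untreated and both genotypes given 10 ug/ml LPS for 2 h or for 4 h. How the Wbp7 allele was made, and whether the arrays of a group came from separate animals or cultures, is not stated in the labels, so p-values measure the spread between these samples, which may be technical. Values are log2 signals from whole-cell RNA, in which fewer cells of a type and less RNA per cell cannot be told apart.

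The Wbp7 probe set (Kmt2b, 10562005) did not separate the genotypes. It read 10.35, 10.41 and 10.47 in untreated KO cells, against 10.97, 10.49 and 10.51 in untreated HET cells (difference −0.24, limma adjusted p = 1). At 2 h it read 10.73, 10.42 and 10.66 in KO cells, against 10.69, 10.96 and 10.33 in HET cells (−0.06, adjusted p = 0.926). At 4 h it read 9.94, 10.21 and 10.09 in KO cells, against 10.32, 10.05 and 10.14 in HET cells (−0.09, adjusted p = 0.715). Whether its probes lie in the stretch of the gene that the allele changes is not stated, so it does not check the labels. Macrophage markers stood high, with 8 of 8 (Lyz2, Cd68, Csf1r, Adgre1, Cd14, Itgam, Fcgr1 and Mertk) between the 82.7th and 99.8th percentile of signal, whereas 0 of 4 measured lymphocyte markers, 0 of 4 mast cell markers and 0 of 2 erythroid markers lay above the median probe set. Of the other lists, 5 of 7 neutrophil, 1 of 4 dendritic cell and 4 of 5 stromal markers lay above it. The HET arrays numbered replicate 1 stood apart in proliferation genes: the median of 19 cell cycle genes lay −2.91 (untreated), −2.83 (2 h) and −2.15 (4 h) from the other HET arrays of the same time. On 10545528 they were the lowest HET arrays of their time (9.01 untreated, 8.74 at 2 h and 8.26 at 4 h). On 10441055 they were the highest at 2 h (9.21) and 4 h (9.35). Where leaving these arrays out changes a call of Pigp or of a comparison given for a named gene, or a count of GPI genes, that result is given.

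RefSeq places Pigp on the minus strand of mouse chromosome 16 (GRCm38.p6) and lists 4 start sites for it. The start of Ttc3, on the plus strand, lies among them. The Ttc3 start is 189 bases from the Pigp start in window chr16:94370501-94370800 and 29 bases from the Pigp start in window chr16:94370661-94370960, and from both of these starts the genes run away from each other. These windows, each from 250 bases before a Pigp start to 50 bases after it, are shown because both Pigp and Ttc3 were lower in KO cells. They read 5′ to 3′ on the Pigp strand, with the E-box CACGTG in capitals.
Pigp, start 94370550: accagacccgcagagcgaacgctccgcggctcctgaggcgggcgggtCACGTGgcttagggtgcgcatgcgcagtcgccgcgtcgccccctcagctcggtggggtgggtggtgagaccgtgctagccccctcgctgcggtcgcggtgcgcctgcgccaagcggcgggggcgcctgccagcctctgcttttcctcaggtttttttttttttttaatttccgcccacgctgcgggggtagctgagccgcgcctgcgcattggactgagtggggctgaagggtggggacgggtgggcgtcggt
Pigp, start 94370710: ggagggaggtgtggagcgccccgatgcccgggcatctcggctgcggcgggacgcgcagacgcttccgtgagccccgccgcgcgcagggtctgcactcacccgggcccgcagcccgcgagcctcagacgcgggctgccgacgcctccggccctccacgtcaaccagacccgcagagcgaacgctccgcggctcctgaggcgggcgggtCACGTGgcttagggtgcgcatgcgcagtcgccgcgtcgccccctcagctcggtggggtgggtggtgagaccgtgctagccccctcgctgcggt

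The same E-box stands in both windows because they overlap, and again in the Ttc3 window (chr16:94370489-94370788), which shares 288 bases with the first and 128 bases with the second. It reads the same on either strand and was found in 7.15% of 32841 promoter windows of the same length. The 4 Pigp windows held 29, 34, 42 and 37 CpG dinucleotides and were 71.0%, 68.7%, 75.3% and 68.3% G and C, against a median of 7 CpG and 52.7% over all windows. At least as many CpG as in the window with 42 were found in 3.03% of all windows. None of the 4 Pigp windows held a TATAAA box, which 13.62% of all windows held on either strand. GGGCGG or its reverse complement stood in all 4 Pigp windows (35.67% of all windows). CCAAT, on either strand, stood in those with 29 and 34 CpG (37.42%). Of 27 other GPI genes with a window, 1 (Pgap2, with 5 windows) had at least 42 CpG in a window and 2 held the E-box. The 42 is the highest of 4 Pigp windows, whereas most of these genes had 1 window, so the comparison is not like for like. A match to these letters is a description and says nothing of a factor's binding.

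Probe set 10441055 gave an intermediate signal in every group, lower in KO than in HET cells. It read 8.34, 8.56 and 8.40 in untreated KO cells, against 8.98, 8.93 and 9.07 in untreated HET cells. After 2 h of LPS it read 8.79, 8.84 and 8.60 in KO cells, against 9.21, 9.01 and 9.15 in HET cells. After 4 h it read 8.77, 8.61 and 8.75 in KO cells, against 9.35, 9.18 and 9.10 in HET cells. All 9 KO arrays lay below all 9 HET arrays, and the genotypes did not overlap at any time. Within an array, this signal stood above 53.0% to 60.0% of probe sets in KO cells and above 59.8% to 69.8% in HET cells.

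The group means of this Pigp probe set were 8.43 ± 0.115 (untreated), 8.74 ± 0.13 (2 h) and 8.71 ± 0.0852 (4 h) in KO cells, and 8.99 ± 0.0702, 9.12 ± 0.104 and 9.21 ± 0.126 at the same times in HET cells (SD, n = 3). KO minus HET was −0.56, −0.38 and −0.50 at the 3 times (SE 0.0939), which puts the KO signal at 0.678, 0.768 and 0.706 of the HET signal. Ordered by mean, HET at 4 h was highest, followed by HET at 2 h, untreated HET, KO at 2 h, KO at 4 h and untreated KO. Arrays of neighbours in this order overlapped among the 3 HET groups and between KO at 2 h and KO at 4 h. They did not overlap between untreated HET and KO at 2 h, or between KO at 4 h and untreated KO.

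**Figure D1:**
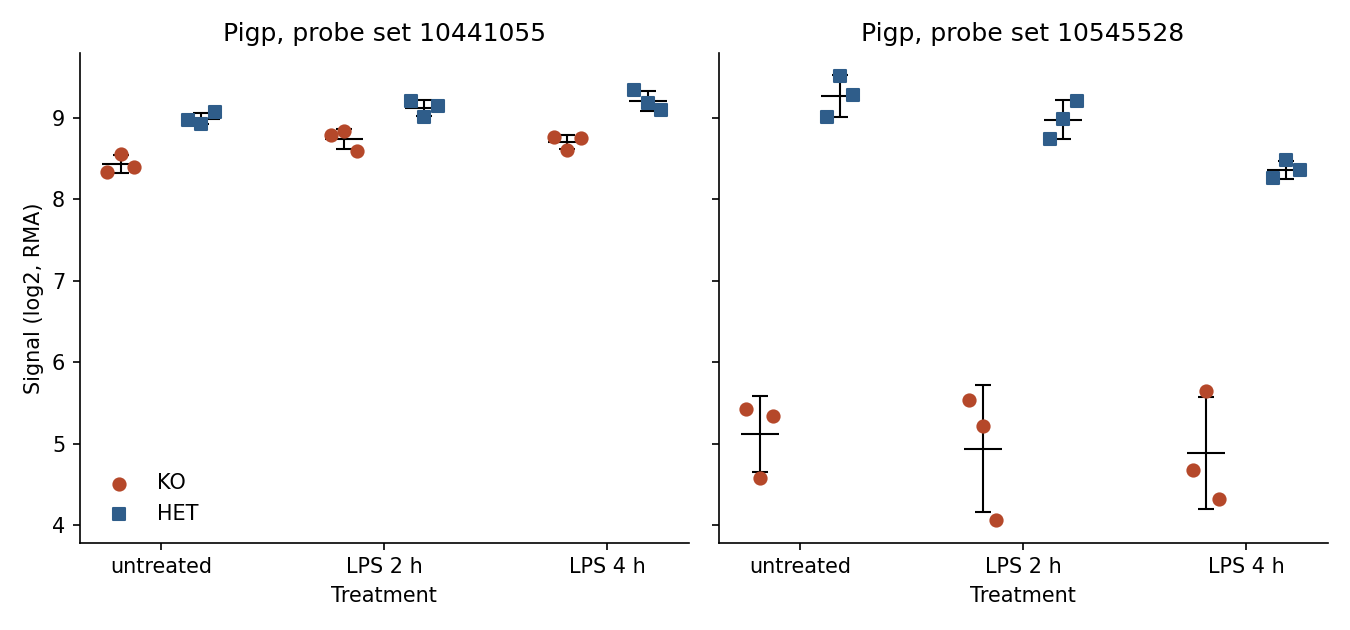
Log2 RMA signal of the Pigp probe sets (vertical axis) by treatment (horizontal axis), with KO arrays as circles left of HET arrays as squares; each point is 1 array, the long dash is the group mean and the bar the SD of 3 arrays. On 10441055 the KO arrays lie between 8.34 and 8.84 and the HET arrays between 8.93 and 9.35; on 10545528 the KO arrays lie between 4.06 and 5.65 and the HET arrays between 8.26 and 9.52.

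Probe set 10545528 separated the genotypes far more widely. It read 5.43, 4.58 and 5.34 in untreated KO cells, against 9.01, 9.52 and 9.28 in untreated HET cells. After 2 h of LPS it read 5.54, 5.22 and 4.06 in KO cells, against 8.74, 8.99 and 9.21 in HET cells. After 4 h it read 4.68, 5.65 and 4.32 in KO cells, against 8.26, 8.48 and 8.36 in HET cells. The KO signal stood among the dimmest of the array, above only 0.8% to 9.7% of probe sets, whereas the HET signal stood above 53.4% to 66.8%.

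The means of this second Pigp probe set were 5.12 ± 0.467, 4.94 ± 0.78 and 4.88 ± 0.688 in KO cells (untreated, 2 h and 4 h), and 9.27 ± 0.257, 8.98 ± 0.233 and 8.37 ± 0.111 in HET cells (SD, n = 3). KO minus HET was −4.16, −4.04 and −3.49 (SE 0.359), a HET signal 17.8, 16.4 and 11.2 times that of KO. Every KO value was under the lower quartile of its array (6.71 to 6.99 across arrays), a range where RMA signals include background, and the true ratio is not known from this probe set. Ordered by mean, untreated HET was highest, followed by HET at 2 h, HET at 4 h, untreated KO, KO at 2 h and KO at 4 h. The arrays of untreated HET and HET at 2 h overlapped, as did those of the 3 KO groups. HET at 4 h overlapped neither with HET at 2 h nor with untreated KO. What share of all probe sets parted in this way was not counted, and the HET change from 2 h to 4 h was not called (−0.61, limma adjusted p = 0.407).

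Among all 25344 probe sets, 10545528 had the lowest KO minus HET difference (rank 1) at each of the 3 times, and 10441055 ranked 347 from the lowest in untreated cells, 1300 at 2 h and 799 at 4 h. Both Pigp probe sets had KO arrays wholly below HET arrays, as did 4.96% of all probe sets in untreated cells, 7.71% at 2 h and 13.8% at 4 h. Since Pigp was chosen on this contrast, nothing is read from these ranks and counts.

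The probe sets share most of their annotation. The platform's table gives 10 transcript accessions for 10441055 and 12 for 10545528, of which 8 are the same. Their probe set numbers differ in their surroundings: the 6 nearest numbered probe sets with a single gene around 10441055 (Setd4, Cldn14, Hlcs, Vps26c, Kcnj6 and Erg) belong to genes of chromosome 16, as Pigp does, and of those around 10545528 (2 of Dnah6, 4931417E11Rik, Rnf26, Ctnna2 and Reg3d) 0 of 6 do. Of these 6, 5 belong to genes of chromosome 6 and 1, Rnf26, to a gene of chromosome 9. Of all named probe sets with a chromosome, 91.4% have both number neighbours on their own chromosome. None of these 12 probe sets was called for KO minus HET at any time. Over all probe sets 0.383% were called in untreated cells, 2.45% at 2 h and 2.64% at 4 h, so nothing is read from this count. Where the probes of either Pigp set align is not stated in the files. The probe set 10545528 may therefore have been placed outside the Pigp gene, and all of its values are those of a probe set assigned to Pigp, not of a known stretch of its transcript. Whether it reads Pigp alone was not tested.

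Across the 18 arrays the Pigp probe sets correlated with each other at r = 0.783, rank 113 among the 21136 other single-gene probe sets seen from 10441055 and 110 seen from 10545528. This r includes the genotype difference that chose the gene. Over deviations from the group means it was −0.118, so that arrays high for their group on one were not, as a rule, high on the other. This r weighs the KO arrays most, where 10545528 was near background and its SD was 0.467 to 0.78, against 0.111 to 0.257 in HET groups. Little is therefore read from it.

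Neither Pigp probe set was called for a response to LPS at 2 h or 4 h in either genotype, at a limma adjusted p under 0.05 over all probe sets. In this fit LPS called 3.1% of all probe sets at 2 h in KO cells (1.36% lower, 1.74% higher) and 13.6% in HET cells (8.54% lower, 5.05% higher). At 4 h it called 14.3% in KO cells (8.29% lower, 6% higher) and 33.4% in HET cells (18.5% lower, 14.9% higher). Between 2 h and 4 h, 3.92% were called in KO cells and 7.07% in HET cells. Of 10 LPS response genes set as a check, 9 in KO cells and 10 in HET cells were called higher at 4 h.

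On the Pigp probe set 10441055, the change at 2 h was 0.31 in KO cells (SE 0.0939, adjusted p = 0.117) and 0.13 in HET cells (adjusted p = 0.447). At 4 h it was 0.28 in KO cells (adjusted p = 0.0653) and 0.22 in HET cells (adjusted p = 0.0857). The LPS arrays lay wholly above the untreated arrays in KO cells at 2 h, as in 11.1% of all probe sets, in KO cells at 4 h (16.3%) and in HET cells at 4 h (24.3%). With replicate number within genotype as a random block, the adjusted p was 0.0324 for KO at 2 h, 0.0219 for KO at 4 h and 0.0378 for HET at 4 h, all under the threshold. With the same block as a fixed term it was 0.059, 0.0392 and 0.0596, so that KO at 4 h alone passed with both. Between 2 h and 4 h the change was −0.03 in KO cells (adjusted p = 0.983) and 0.09 in HET cells (adjusted p = 0.68).

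On the Pigp probe set 10545528, the largest LPS difference was that of HET cells at 4 h, −0.90 (SE 0.359, 95% interval −1.67 to −0.14, adjusted p = 0.0649), where the LPS arrays lay wholly below the untreated ones, as in 20.2% of all probe sets. It passed the threshold with the replicate block (adjusted p = 0.0257 random, 0.0338 fixed) and when only the arrays of the contrast were fitted (0.00751), a fit without the KO arrays, whose SDs on this probe set are wider. The other differences were −0.29 for HET at 2 h (adjusted p = 0.674), −0.17 for KO at 2 h (0.914) and −0.23 for KO at 4 h (0.751), the KO values being near the floor of the array. Between 2 h and 4 h the change was −0.06 in KO cells (adjusted p = 0.993) and −0.61 in HET cells (adjusted p = 0.407).

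**Figure D2:**
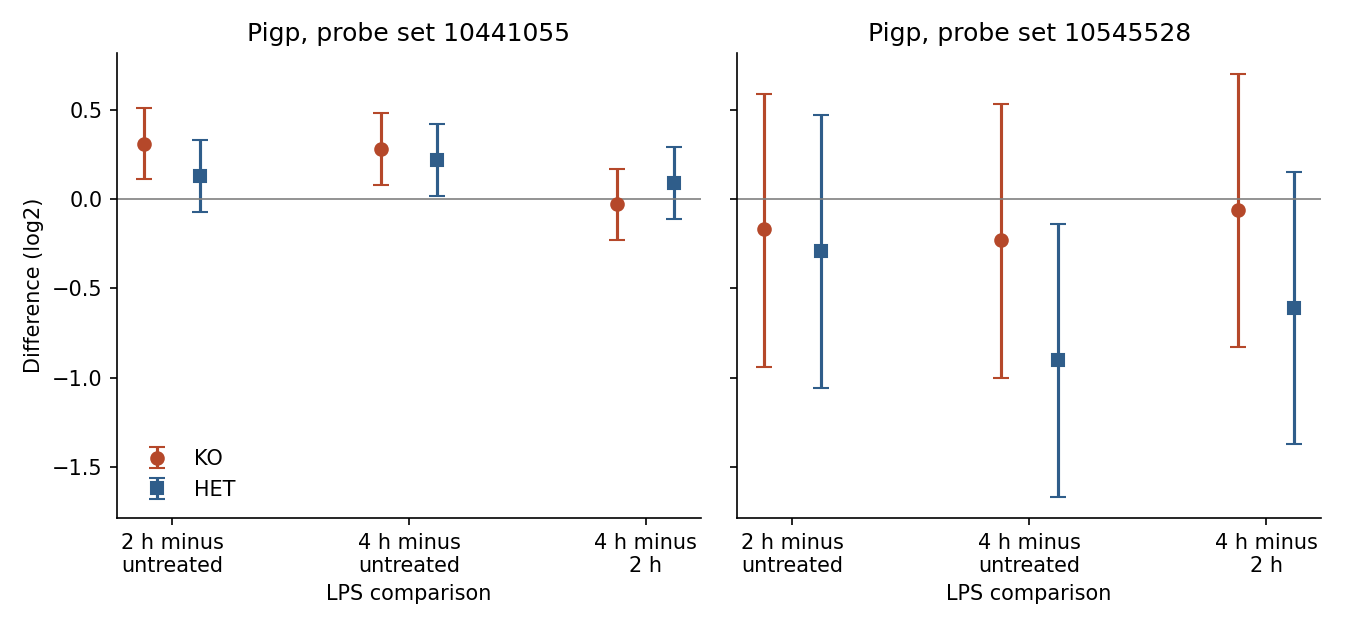
Change of the Pigp signal between LPS times on the log2 scale (vertical axis), for KO (circles) and HET cells (squares) on each probe set; points are differences of means of 3 arrays and bars are 95% intervals of the limma fit, before adjustment for the number of probe sets. On 10441055 the changes from untreated lie between 0.13 and 0.31, and on 10545528 between −0.90 and −0.17 with intervals several times wider.

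No difference between the genotypes in the Pigp response to LPS was called. KO response minus HET response was 0.18 at 2 h and 0.06 at 4 h on 10441055 (SE 0.133, adjusted p = 1 and 0.956), and 0.12 and 0.67 on 10545528 (SE 0.508, adjusted p = 1 and 0.861). From 2 h to 4 h it was −0.12 on 10441055 and 0.55 on 10545528 (adjusted p = 1 for both). This test called 0% of all probe sets at 2 h (1397 of 25344 had an unadjusted p under 0.05), 0.0355% at 4 h and 0.00395% for 2 h to 4 h. With replicate number within genotype as a random block it called 29 lower and 14 higher at 2 h and 35 and 28 at 4 h, and as a fixed block 22 and 9 at 2 h and 53 and 69 at 4 h, against 0 and 0 at 2 h and 8 and 1 at 4 h without a block. Neither Pigp probe set was among them.

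The Pigp probe sets were also set against each other within each array, since their LPS differences had opposite signs in HET cells at 4 h. The signal of 10545528 minus that of 10441055 within an array lay between −1.09 and −0.69 in HET cells at 4 h, against 0.03 to 0.59 in untreated HET cells. The level of one probe set against another has no meaning on such arrays, so only the change, −1.12, is given. The groups did not overlap, but how many other pairs of probe sets would part in this way was not counted. The changes were −0.42 in HET cells at 2 h, −0.48 in KO cells at 2 h and −0.51 in KO cells at 4 h, where the arrays overlapped. These are descriptions with no test, as the comparison was chosen after the signs were seen, and in KO cells 10545528 was near background.

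Of the 3 nearest protein-coding genes on each side of Pigp (Sim2, Hlcs and Ripply3, and Ttc3, Vps26c and Dyrk1a), Ttc3 was the one that was called for KO minus HET, at all 3 times. Of all probe sets, 0.383% were called in untreated cells, 2.45% at 2 h and 2.64% at 4 h. Ttc3 encodes a ubiquitin ligase, and its span overlaps that of Pigp in RefSeq. Its probe set (10437080) read 6.77, 6.25 and 6.49 in untreated KO cells, against 8.40, 8.84 and 8.37 in untreated HET cells. After 2 h of LPS it read 6.49, 6.61 and 6.41 in KO cells, against 7.80, 8.48 and 8.41 in HET cells. After 4 h it read 6.66, 6.20 and 6.45 in KO cells, against 7.55, 7.80 and 7.74 in HET cells. The genotypes did not overlap at any time, and the KO values (6.20 to 6.77) stood near or under the lower quartile of the arrays. KO arrays lay wholly below HET arrays in 4.96% of all probe sets in untreated cells, 7.71% at 2 h and 13.8% at 4 h.

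Ttc3 was lower in KO by −2.03 in untreated cells (SE 0.185, limma adjusted p = 3.75e-05), −1.73 at 2 h and −1.26 at 4 h (adjusted p = 0.00026 and 0.0029). Each call held under every alternative that gave a value for it. The fixed replicate block and the setting without dim probe sets gave none. LPS at 4 h lowered Ttc3 in HET cells by −0.84 (adjusted p = 0.00268), and the change in KO cells was −0.06 (adjusted p = 0.876). Over the 18 arrays Ttc3 correlated with 10545528 at r = 0.956 and with 10441055 at r = 0.711. Over deviations from the group means these were 0.267 and −0.371. All of these points share arrays and groups. Both genes overlap in RefSeq but lie on opposite strands. Of the Pigp starts only that at 94371015 lies past the Ttc3 start, by 276 bases. Whether a probe set of one gene reads transcripts of the other was not tested.

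The other neighbours of Pigp were not called for KO minus HET. Hlcs, the enzyme that puts biotin on carboxylases, stood at 0.39, 0.55 and 0.69 (adjusted p = 1, 0.175 and 0.0734), and Vps26c, a retriever complex subunit, at 0.06, 0.70 and 0.45. Sim2 lay between −0.27 and 0.06 and Ripply3 between −0.29 and −0.07. The kinase gene Dyrk1a, with 2 probe sets, lay between −0.15 and 0.22.

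**Figure D3:**
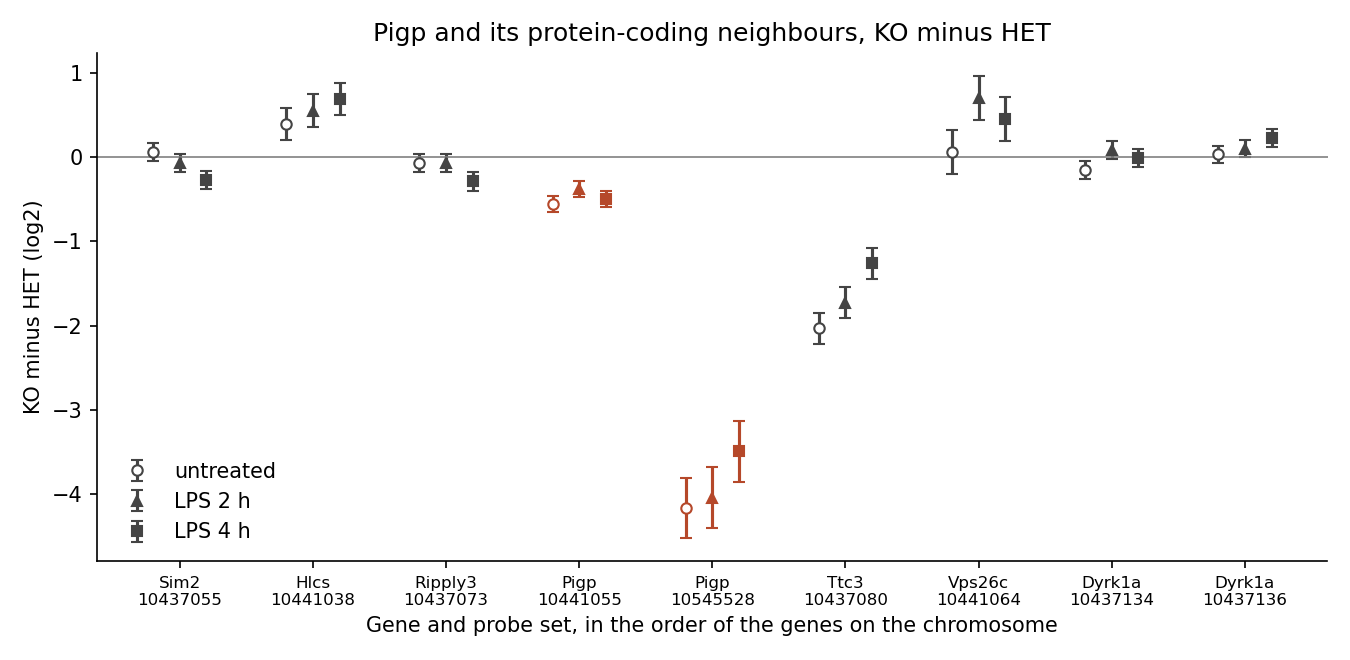
KO minus HET difference (log2, vertical axis) of the Pigp probe sets (red) and of 7 probe sets of its 6 nearest protein-coding genes (grey), placed by gene order on the chromosome; open circles are untreated, triangles LPS 2 h and squares LPS 4 h, and bars are the SE of the limma fit with 3 arrays per group. The Pigp and Ttc3 probe sets lie below −0.3 at all 3 times, and those of Hlcs lie above 0.3.

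Few other genes of GPI synthesis were called for KO minus HET. The list held 33 measured genes other than Pigp, with Pigy not measured here. For KO minus HET in untreated cells, 1 of 33 was called lower and 0 higher, against 0.383% of all probe sets called (0.339% lower, 0.0434% higher). At 2 h, 1 was lower and 1 higher (all probe sets 2.45%, with 1.44% lower and 1.01% higher), and at 4 h, 1 was lower and 0 higher (2.64%, with 1.08% lower and 1.56% higher). The medians of the 33 were 0.02, 0.16 and 0.13, against −0.01, 0.00 and −0.05 over all probe sets.

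The called gene was Pigz in each case, which adds the fourth mannose that some anchors carry. Pigz averaged 8.19 ± 0.0908 in untreated KO cells and 8.92 ± 0.114 in untreated HET cells (SD, n = 3), a difference of −0.74 (SE 0.0971, adjusted p = 0.00196), followed at 2 h by −0.49 and at 4 h by −0.54 (adjusted p = 0.0173 and 0.0104). The untreated call of Pigz was lost with the arrays of the contrast alone. At 2 h 4 alternatives ended its call and at 4 h also 4, most of them leaving out 1 array. Pigz correlated with 10545528 at r = 0.917 over the 18 arrays, and at 0.071 over deviations from group means. Pigh, a further subunit of the first enzyme, was called higher in KO at 2 h (0.44, adjusted p = 0.0482), close to the threshold. In all, 20 alternatives ended that call, most of them leaving out 1 array. Without replicate 1 of HET at all times it was 0.35 (adjusted p = 0.159). The remaining subunits of the first enzyme were not called for KO minus HET: in untreated cells Piga stood at 0.14, Pigc at −0.08, Pigq at 0.18 and Dpm2 at −0.08 (adjusted p = 1 for each). The RNA of Cd14, whose protein is GPI-anchored, was not called either (−0.11, −0.26 and −0.07, with adjusted p of 1, 0.566 and 0.798). Cd14 protein on the cell surface was not measured.

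After 4 h of LPS, more GPI genes were called lower than higher in HET cells in the fit of all arrays, as over all probe sets. The size of this excess depended on the setting. In KO cells the count of lower genes rested on single arrays and on the scaling. In KO cells 5 of 33 were called lower and 2 higher (8.29% and 6% over all probe sets), with a median of −0.16 against 0.02. In HET cells 15 were called lower and 4 higher (18.5% and 14.9% over all probe sets), with a median of −0.32 against 0.08. At 2 h, 0 were lower and 1 higher in KO cells (1.36% and 1.74% over all probe sets), and 3 lower and 1 higher in HET cells (8.54% and 5.05%), a share of the 33 close to that of all probe sets. The gene called in KO cells at 2 h was Pigv (0.84, adjusted p = 0.0421), and 10 alternatives ended that call, 9 of them leaving out 1 array. In KO cells at 4 h the count of lower genes was 0 without KO untreated replicate 3, 1 without KO LPS 4 h replicate 1 or 3, and 2 with arrays centred or with quantile normalization, against 2 higher in each of these. Any one of KO untreated replicates 1 and 2, KO LPS 2 h replicates 1 and 3 and KO LPS 4 h replicate 2 left out also gave 2, and HET untreated or LPS 2 h replicate 2 left out gave 3. That count was 10 with replicate number as a fixed block and 9 without the HET replicate 1 arrays. In HET cells at 4 h the count of lower genes was 9 without HET LPS 4 h replicate 1 or HET untreated replicate 2. The count of higher genes was 2 without HET LPS 4 h replicate 1. With the arrays of the contrast alone 4 were lower and 3 higher, and with a 2-fold minimum 1 and 1. Without HET replicate 1 at all times 13 were lower and 2 higher, and with the fixed block 21 and 5. In HET cells at 2 h the count of lower genes was 9 with that block. It was 1 without HET untreated replicate 1 or 2, HET LPS 2 h replicate 1, or HET replicate 1 at all times. No GPI gene was called for the difference in response between the genotypes at 2 h or 4 h.

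Among the subunits that work in one complex with Pigp, 3 of 5 were called lower at 4 h in KO cells and 4 of 5 in HET cells, where 8.29% and 18.5% of all probe sets were called lower. The KO calls were close to the threshold: 12 alternatives ended that of Piga, 14 that of Pigh and 3 that of Dpm2, among them leaving out KO untreated replicate 3 for each. Piga, the catalytic subunit, stood at −0.66 in KO cells (adjusted p = 0.0448) and −0.69 in HET cells (adjusted p = 0.0186). Pigh stood at −0.34 in KO cells (adjusted p = 0.0485) and −0.66 in HET cells (adjusted p = 0.000257). Dpm2, shared with dolichol phosphate mannose synthase, stood at −0.34 in KO cells (adjusted p = 0.0139) and −0.38 in HET cells (adjusted p = 0.00339). Pigc was called in HET cells (−0.48, adjusted p = 0.00107) and not in KO cells (−0.25, adjusted p = 0.099), and Pigq in neither (−0.32 in KO cells, −0.44 in HET cells). In HET cells 3 alternatives ended the call of Piga, 1 that of Dpm2 and 0 those of Pigc and Pigh. On the same comparison Pigp read 0.28 in KO cells and 0.22 in HET cells on 10441055, and −0.23 and −0.90 on 10545528, none of them called.

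Further along the pathway, Pigv, which adds the second mannose, rose at 4 h by 1.01 in KO cells (adjusted p = 0.00411) and 1.54 in HET cells (adjusted p = 5.06e-05). Pgap2, which acts in the remodelling of the anchor's lipid, rose by 0.85 in KO cells (adjusted p = 8.50e-05) and 1.00 in HET cells (adjusted p = 8.95e-06). Pgap6, a phospholipase that releases GPI-anchored proteins, fell by 0.73 in KO cells (adjusted p = 0.0142) and by 0.81 in HET cells (adjusted p = 0.00341). Without KO LPS 4 h replicate 2 or KO untreated replicate 3, Pgap6 was not called in KO cells. Of the 5 transamidase genes, 0 were called in KO cells and 1, Pigu, in HET cells (−0.51, adjusted p = 0.0246), against 14.3% and 33.4% of all probe sets, and 4 alternatives ended that call.

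**Figure D4:**
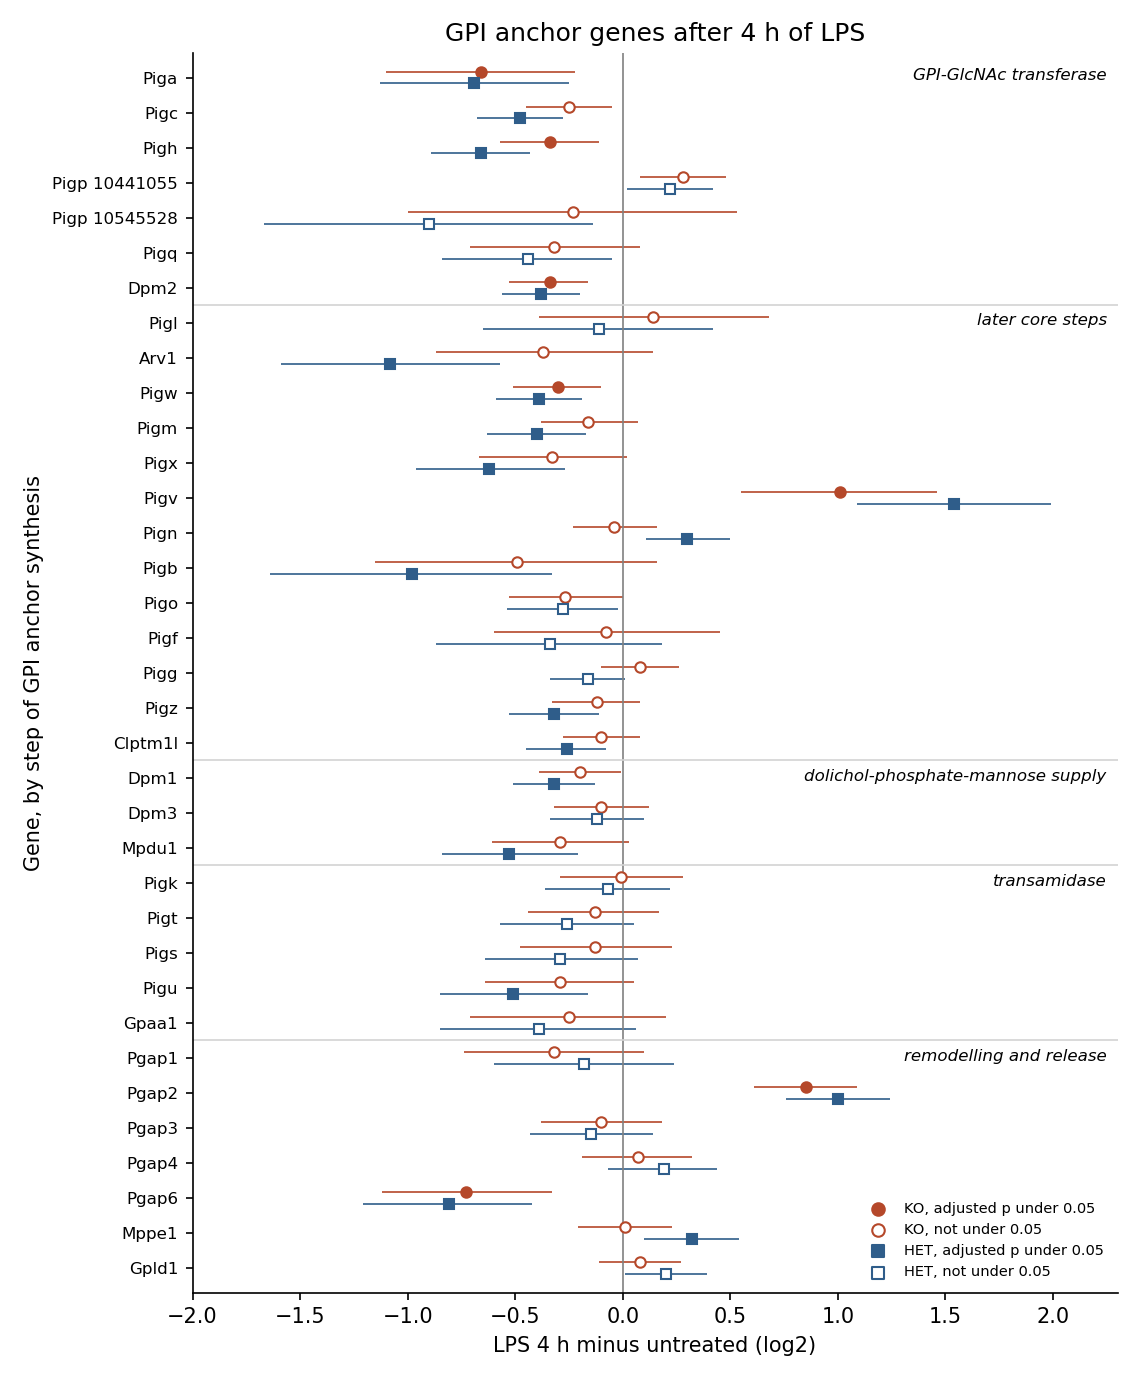
Change after 4 h of LPS on the log2 scale (horizontal axis) of Pigp and the 33 other measured GPI genes (rows, grouped by step), with KO as circles above HET as squares; bars are 95% intervals of the limma fit (n = 3 arrays per group) and filled symbols have an adjusted p under 0.05. In HET cells 15 of the 33 are filled left of 0 and 4 right of it, and the Pigp symbols are open.

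The genes most like each Pigp probe set differed. Likeness was Pearson's r over the 18 arrays, given as a description, since the arrays share groups and r includes the genotype difference. For 10441055 the highest were Aig1, a lipid hydrolase (r = 0.926), Dock6, an exchange factor for small GTPases, on 2 probe sets (0.911 and 0.898), Fbxo44, an F-box protein (0.908), and Il3ra, the interleukin-3 receptor alpha chain (0.897). The most opposed were Pla2g5, a secreted phospholipase (−0.917), Mpv17l (−0.899) and Sez6l2 (−0.898). Aig1 averaged 7.77 ± 0.0874 in untreated KO cells and 8.52 ± 0.0728 in untreated HET cells, and Pla2g5 averaged 10.30 ± 0.48 in untreated KO cells and 8.57 ± 0.11 in untreated HET cells (SD, n = 3).

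For 10545528 the highest were Taf9b, a relative of the transcription factor subunit Taf9 (r = 0.981), Dip2c on 2 probe sets (0.977 and 0.962), Maged1, a MAGE family protein (0.971), and Stau2, an RNA-binding protein (0.97). All 4 genes shared a wide gap between the genotypes: Taf9b averaged 6.22 ± 0.0393 in untreated KO cells and 10.28 ± 0.22 in untreated HET cells, and Stau2 averaged 7.04 ± 0.222 in untreated KO cells and 9.74 ± 0.411 in untreated HET cells. The most opposed were Gtsf1 (−0.93), Chil3, a chitinase-like protein of macrophages (−0.913), and Akr1c12 (−0.911). Gtsf1 averaged 8.08 ± 0.29 in untreated KO cells and 6.78 ± 0.136 in untreated HET cells (SD, n = 3).

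Over deviations from the group means, where the genotype and LPS differences are removed, the likest to 10441055 were Tmco5 (r = 0.863), Vwc2l (0.857) and Tex29 (0.855), and to 10545528 Pcdhb17 (0.802), Tmem63a (0.762) and Vmn2r90 (0.756). The deviations of 10545528 were widest in the KO groups (SD 0.467 to 0.78, against 0.111 to 0.257 in the HET groups), where its signal was near background. Its r values on this measure therefore weigh the KO arrays most. Pcdhb17 (mean 5.22 in untreated KO cells) and Vmn2r90 (5.87) were dim themselves, whereas Tmem63a (11.41) was not. Whether background makes this likeness was not tested. Over the same deviations Aig1 kept r = 0.727 with 10441055 and Taf9b 0.472 with 10545528. With Spearman's rho in place of r, 2 of the 5 highest stayed for 10441055 and 1 of 5 for 10545528, Taf9b being that one.

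**Figure D5:**
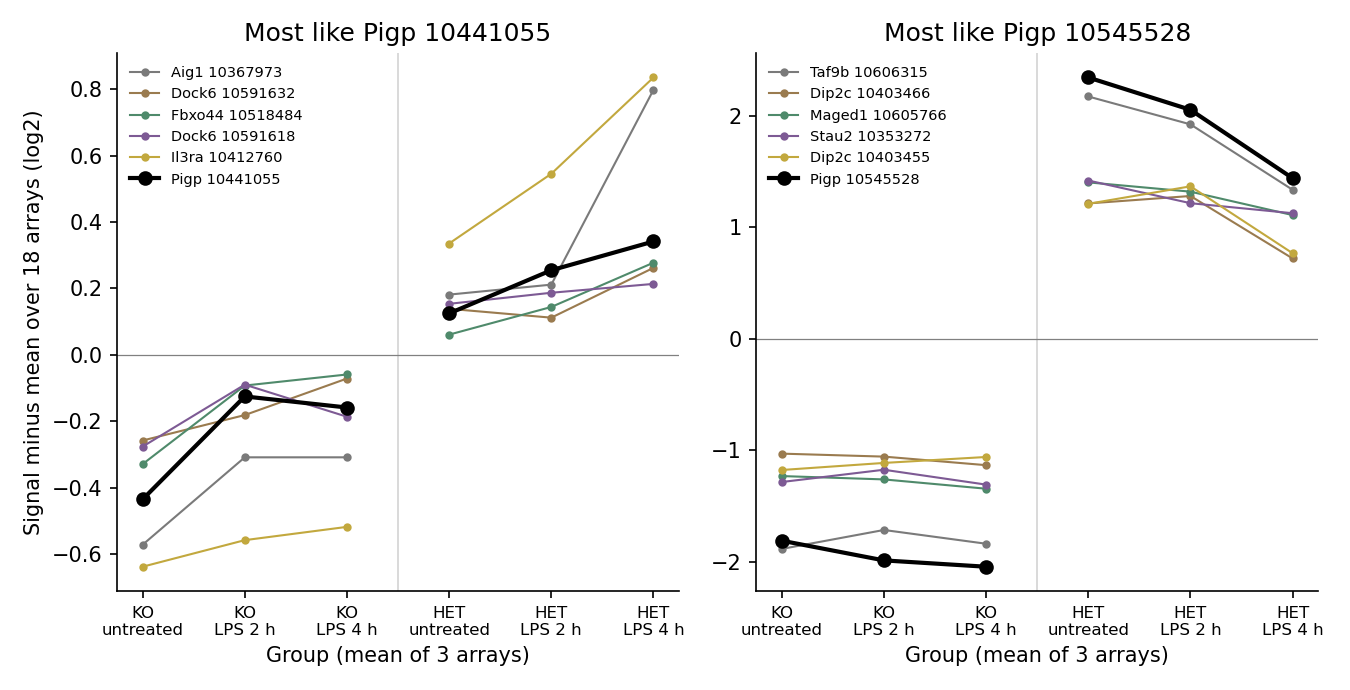
Group mean minus the mean over all 18 arrays on the log2 scale (vertical axis) in the KO and HET groups (horizontal axis) for each Pigp probe set (black) and the 5 probe sets most like it by r. Around 10545528 the lines form a step between the genotypes, with Taf9b nearest to Pigp in height; around 10441055 the step is smaller, and the changes with LPS are a larger share of the pattern.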

How the data were processed

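Per the submitters' processing notes, the authors made the deposited log2 values with RMA in Partek 6.5, which corrects background, normalizes arrays and summarizes probes. The submitters' notes give no settings, genome build or filter. The deposited values (25344 probe sets, 18 arrays) were analysed without further scaling. Array medians lay between 8.05 and 8.13, no arrays were identical and no column was left unused. Arrays have no read depth, and their number limits the precision.

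Probe sets were named by the platform's table (21137 with a single gene, 1530 with several, 2677 with none). One model with 6 group means was fitted to all probe sets with limma 3.58.1 in R 4.3.3 (12 residual degrees of freedom, prior degrees of freedom 3.14), and calls were made at a p under 0.05 after Benjamini-Hochberg adjustment within a contrast. The script was tested on simulated data. Changes within an array between the Pigp probe sets are descriptions. For other GPI genes the probe set with the highest mean was used. Promoter windows are RefSeq's (GRCm38.p6). Figures were drawn with Python and matplotlib.

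Named genes were both Pigp probe sets, Wbp7 and Cd14, the 5 probe sets with the highest and 3 with the lowest r to each Pigp probe set, the 3 with the highest r of deviations, the 3 nearest protein-coding genes and the 3 nearest probe set numbers on each side, all members of the first enzyme and every GPI gene called for KO minus HET. Pigv, Pgap2, Pgap6 and Pigu were named after their values were seen. The members and lists were chosen with earlier results of these data known.

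Deviations from the group means correlated between same-numbered arrays of a genotype (r between 0.305 and 0.792 in 18 pairs) more than between genotypes (−0.341 to 0.375 in 27 pairs), so the number was read as a pairing inside each genotype, which the labels do not say. The results were recomputed with each array centred on its median, quantile normalization, dim probe sets left out (under the 40th percentile of mean signal), single-gene probe sets alone with 1 per gene, probe sets averaged by gene, a robust prior with an intensity trend, array weights, only the arrays of a contrast, the replicate number as a block, a 2-fold minimum for counts, each array left out in turn, and HET replicate 1 left out at all times.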

Additional observations from a re-analysis of the deposited data

How the results depend on the processing

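With 18 arrays the intervals of single differences are wide, most of all for 10545528, whose KO values are near the background of the arrays. No result of the report changed direction where it was called. Under the alternatives with 1 probe set per gene, 10545528 had no value of its own, nor with dim probe sets left out. KO minus HET of 10441055 was −2.36 (untreated), −2.21 (2 h) and −1.99 (4 h) when the Pigp probe sets were averaged, which mixes them, and −0.65 at 4 h with quantile normalization. The KO response of 10441055 passed the threshold at 2 h with array weights (0.31, limma adjusted p = 0.0105), with the random replicate block (0.31, 0.0324) and without HET replicate 1 at all times (0.31, 0.0491). At 4 h it passed with dim probe sets left out (0.28, 0.0473), array weights (0.26, 0.0249), the replicate block, random (0.28, 0.0219) or fixed (0.28, 0.0392), and without HET replicate 1 at all times (0.28, 0.0335). Leaving out single arrays gave 0.23 to 0.34 at 4 h (adjusted p from 0.046 to 0.213), and it passed without HET LPS 4 h replicate 1 or KO untreated replicate 2. At 2 h this gave 0.26 to 0.38, with adjusted p from 0.0777 to 0.403. The HET response at 4 h passed on 10441055 with quantile normalization (0.49, 0.00915) and the random replicate block (0.22, 0.0378), and on 10545528 with the contrast's arrays alone (−0.90, 0.00751) and the replicate block, random (−0.90, 0.0257) or fixed (−0.90, 0.0338). Leaving out single arrays gave −1.03 to −0.78 on 10545528, with adjusted p from 0.0284 to 0.18. On 10441055 it gave 0.15 to 0.27, with adjusted p from 0.057 to 0.322. Without HET replicate 1 at all times the HET response at 4 h was 0.14 on 10441055 (adjusted p = 0.332) and −0.98 on 10545528 (0.119). With quantile normalization it was −0.76 on 10545528 (0.116). The replicate block changed no other call on the Pigp probe sets. The cause of these shifts was not tested.

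GPI genes called lower for KO minus HET numbered 0 with a 2-fold minimum or the contrast's arrays alone at each time, against 1 in the report. At 2 h there were 2, and at 4 h 2, with array weights and without HET replicate 1 at all times. With the number over all arrays as a replicate block there were 2 at 2 h and 3 at 4 h, and with quantile normalization 3 at 4 h. Genes called higher numbered 1 at 4 h with quantile normalization, array weights or that block, and at 2 h the 1 gene, Pigh, was lost (0) with arrays centred, quantile normalization, an intensity trend, the contrast's arrays alone, the random replicate block, a 2-fold minimum and without HET replicate 1 at all times. Leaving out single arrays gave 0 to 2 lower at 2 h and 4 h, and 0 to 1 higher. After 4 h of LPS, GPI genes called lower numbered 0 to 10 in KO cells and 1 to 21 in HET cells over all alternatives, with 0 in KO cells from the 2-fold minimum and from leaving out KO untreated replicate 3 alone, and 1 in HET cells from the 2-fold minimum. Leaving out single arrays gave 0 to 5 in KO cells and 9 to 16 in HET cells, and the fixed replicate block 10 and 21.

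Over all probe sets, KO minus HET calls in untreated cells numbered 86 lower and 11 higher in the report, 22 and 3 with the contrast's arrays alone, and 30 and 3 without KO untreated replicate 3. At 2 h they numbered 364 and 257, against 29 and 7 with the contrast's arrays alone, and 114 to 551 lower and 43 to 530 higher with single arrays left out. At 4 h they numbered 273 lower and 395 higher, against 35 and 7 with the contrast's arrays alone, 89 and 29 without KO LPS 4 h replicate 2, and 671 and 961 with the number over all arrays as a replicate block. The shares called over all probe sets move with these counts. LPS calls at 2 h in KO cells numbered 344 lower and 442 higher, against 973 and 930 with the fixed replicate block. In HET cells at 2 h they numbered 2164 and 1279, against 3974 and 2296 with that block. At 4 h they numbered 2100 lower and 1520 higher in KO cells, against 4119 lower without HET replicate 1 at all times and 2489 higher with the fixed replicate block. In HET cells at 4 h they numbered 4690 and 3786, against 2885 and 1859 with the contrast's arrays alone.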
